A study of Homo sapiens with 6 samples.

Results

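The SOX transcription factors were followed in SW403 cells, a human colon adenocarcinoma line, with and without knockdown of IRS2, the gene of an adaptor protein that passes on signals from the insulin and IGF1 receptors. The members are 10 named genes (SOX2, SOX4, SOX5, SOX6, SOX8, SOX9, SOX11, SOX12, SOX13 and SOX18) among the 26490 gene symbols of the count table, and all 10 have a row in it. They were picked by symbol with this same comparison already known, above all that SOX4 was lower in knockdown cells while most Wnt target genes were higher. Their differences between the groups are therefore given as a description, with fold changes and standard errors but no p-values, and nothing is supported with them. The 3 control libraries carry the genotype label WT and the letters NS. The 3 knockdown libraries carry the genotype label IRS2_knockdown, and their descriptions read IRS2KO. All 6 came from untreated SW403 cultures grown for 24 h in DMEM with serum. The titles call the libraries biological replicates, but what made them separate is not given. How IRS2 was lowered, and whether each group was 1 clone or 1 pool, is not given in the sources used here. The spread between replicates is therefore that between cultures and may leave out differences between clones or pools.

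SOX proteins bind DNA through a high mobility group (HMG) box related to that of SRY, bend it, and usually act together with partner factors. They are sorted into groups by the sequence of that box. SoxB1 factors such as SOX2 keep progenitor cells undifferentiated, SoxC factors (SOX4, SOX11 and SOX12) act in progenitors and in many tumours, SoxD factors (SOX5, SOX6 and SOX13) lack an activation domain of their own, SoxE factors (SOX8 and SOX9) act in cartilage, the neural crest and the gut, and SoxF factors such as SOX18 act in vessels. In the intestine SOX9 marks the crypt base and is needed for Paneth cells, and both SOX9 and SOX4 are known as targets of Wnt signalling.

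What the members share is the HMG box. The bases that encode a conserved stretch at its start are shown to let the members be compared, because it is a stretch they all have. They were found by searching the translated transcripts for 1 fixed run of amino acids, so every member encodes the same residues here. The bases were read from 1 canonical GENCODE transcript per gene and run 5′ to 3′. Capitals mark bases that differ from SOX4.
SOX4: cgacccatgaacgccttcatggtgtgg
SOX11: cgGccGatgaacgcGttcatggtAtgg
SOX12: AgGccGatgaacgcAttcatggtgtgg
SOX2: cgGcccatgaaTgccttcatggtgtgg
SOX8: cgGcccatgaacgcAttcatggtgtgg
SOX9: cgGcccatgaacgccttcatggtgtgg
SOX18: cgGcccatgaacgccttcatggtgtgg
SOX5: cgTccAatgaaTgccttcatggtgtgg
SOX6: cgaccAatgaaTgcAttcatggtTtgg
SOX13: AgGcccatgaacgccttcatggtgtgg

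Over these 27 bases SOX9 and SOX18 differed from SOX4 at 1 base, and SOX11, SOX12 and SOX6 at 4. These differences leave the encoded amino acids unchanged, so they do not show how close the proteins or the SOX groups are. Beyond this stretch the transcripts diverged. The longest identical run between any pair of members was 37 bases, shared by SOX8 and SOX9, and the longest run of SOX4 with another member was 33 bases, with SOX12. No word of 50 bases of SOX6, SOX8, SOX9, SOX11, SOX12, SOX13 or SOX18 occurred in the canonical transcript of any other gene. For the remaining members, matches were counted at each position of the other transcripts, so a word found in several genes counts for each. SOX4, with 4820 such words, had 121 matches, all with ENSG00000283480, a long non-coding RNA annotated on the opposite strand across its start. SOX2, with 2463 words, had 61 matches, with SOX1, SOX21 and a processed pseudogene. SOX5, with 7027 words, had 5 matches, with the pseudogene SOX5P1. How shared reads were counted is not given in the sources used here.

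In the GENCODE annotation lifted to GRCh37, the build that the submitters' processing notes name as hg19, SOX4 is a gene of 1 exon on chromosome 6 (21593982 to 21598850). SOX12 also has 1 exon, on chromosome 20 (306196 to 310868), and SOX13 has 14 exons on chromosome 1 (204042243 to 204096871). SOX9 has 3 exons on chromosome 17 (70117161 to 70122557), inside the span of SOX9-AS1. SOX2 lies on chromosome 3 (181429713 to 181432224, 1 exon) and SOX6 on chromosome 11 (15987995 to 16761138, 16 exons). The bases upstream of SOX4, SOX12 and SOX13 are shown because these 3 abundant members had control and knockdown values that did not overlap. Each is the 250 bases before the RefSeq start in GRCh38.p14, on the plus strand, at chr6:21593501-21593750, chr20:325302-325551 and chr1:204072865-204073114. Capitals mark every match to the searched motifs.
SOX4: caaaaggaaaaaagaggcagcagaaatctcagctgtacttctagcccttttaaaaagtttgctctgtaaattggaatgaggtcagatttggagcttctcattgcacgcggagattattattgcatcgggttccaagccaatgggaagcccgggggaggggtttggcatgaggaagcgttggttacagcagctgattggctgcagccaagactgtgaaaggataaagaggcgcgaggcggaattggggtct
SOX12: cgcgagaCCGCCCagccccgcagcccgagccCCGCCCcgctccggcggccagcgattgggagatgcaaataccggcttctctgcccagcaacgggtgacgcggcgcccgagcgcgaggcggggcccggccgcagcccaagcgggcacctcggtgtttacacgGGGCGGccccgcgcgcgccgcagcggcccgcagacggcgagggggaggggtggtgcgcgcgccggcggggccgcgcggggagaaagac
SOX13: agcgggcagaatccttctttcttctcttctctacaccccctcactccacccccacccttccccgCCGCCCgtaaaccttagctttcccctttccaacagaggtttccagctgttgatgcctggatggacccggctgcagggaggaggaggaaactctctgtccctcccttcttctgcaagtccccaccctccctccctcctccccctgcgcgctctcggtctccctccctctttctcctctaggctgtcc

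The searched words were CTTTGAT and CTTTGAA for TCF/LEF factors, which carry Wnt signals to DNA, AACAAT and AACAAAG for SOX factors, and GGGCGG for the GC box, all on both strands. AACAAAG read on the other strand begins with the same 5 letters as the TCF/LEF words. The SOX4 window held none of these words, the SOX12 window held 3 GC boxes and the SOX13 window held 1. GC boxes were present in 42.6% of all 35116 windows of this length in the RefSeq table, CTTTGAT in 2.26%, CTTTGAA in 3.80%, AACAAT in 8.98% and AACAAAG in 4.50%. The SOX4 window was 48.8% G and C with 8 CpG sites, and the SOX12 window 79.2% with 42. The SOX13 window was 60.8% G and C, against a median of 58.0% over all windows. The RefSeq table matched 6 of the 10 members. A match or its absence describes only these letters in these windows.

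Library totals ran from 11816973 to 18114656 counts, with the 3 knockdown totals above the 3 control totals. Levels are therefore given as CPM, the share of a library’s counts on a per-million scale. Log2 fold changes, and percentages of the control level, come from the edgeR fit, which scales the libraries further. They can differ slightly from the ratio of the mean CPM values. IRS2 itself measured 32.4, 34.8 and 32.2 CPM in the controls, and in the knockdown libraries 13.0, 12.3 and 11.9 CPM (log2 fold change -1.39 ± 0.07 SE, edgeR adjusted p 3.12e-11). Of 11 colon epithelium markers, 7 passed the expression filter, while KRT20, CDX1 and CEACAM5 were at 0 in every library and CDH1, the E-cadherin gene, had at most 5 counts in a library. KRT8 and KRT18 were not called, HNF4A (log2 fold change 0.69, edgeR adjusted p 1.73e-10) and CDX2 rose, and KRT19 (-0.47, 4.35e-08) and EPCAM (-0.21, 0.00581) fell. The summed level of the 11 was 2623 to 2726 CPM in the controls, against 2509 to 2596 CPM after knockdown. Of 10 endothelial markers, from cells that rely on SoxF factors, PECAM1, CDH5 and LYVE1 were at 0 in every library. The 10 summed to 12.8 to 14.6 CPM in the controls, against 7.40 to 8.45 CPM after knockdown. Of the 2 that passed the filter, FLT4 fell from 7.77 ± 0.37 to 2.49 ± 0.23 CPM (SD, n = 3 each; edgeR adjusted p 1.21e-07), and FLT1 had a log2 fold change of -0.02 and was not called. Fibroblast markers summed to 8.97 to 27.6 CPM in the controls, against 5.80 to 7.29 CPM after knockdown. Control replicate 1 stood apart there, with 193 counts of COL1A1 against 72 and 67 in the other controls. Without it the log2 fold change of COL1A1 went from -1.15 to -0.50, and COL3A1 was no longer called (edgeR adjusted p 0.179). Neural markers summed to 119 to 122 CPM in the controls, against 105 to 120 CPM after knockdown, most of it TUBB3, which was not called. SYP fell (log2 fold change -0.57, edgeR adjusted p 0.00581), as did OLIG2, which passed the filter through its control libraries only. The neural genes given further below moved both ways, with POU3F2 and POU4F1 lower and NES, NOTCH1 and PAX6 higher. Immune markers summed to at most 3.38 CPM. The part of other cells in the results was not tested. In bulk RNA, fewer cells that express a gene and less RNA per cell cannot be told apart.

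Of the 10 members, 4 supplied nearly all SOX counts. SOX9, SOX4, SOX12 and SOX13 together made up 97.5% to 97.6% of the summed member CPM in the controls, against 98.0% to 98.2% after knockdown. The summed level measured 495, 472 and 479 CPM in the 3 control libraries, against 460, 458 and 454 CPM after knockdown. SOX9 alone was 39.5% to 39.9% of it in the controls, against 42.3% to 43.8% after knockdown. SOX4 was 24.8% to 25.4% in the controls, against 17.8% to 20.4% after knockdown.

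**Figure D1:**
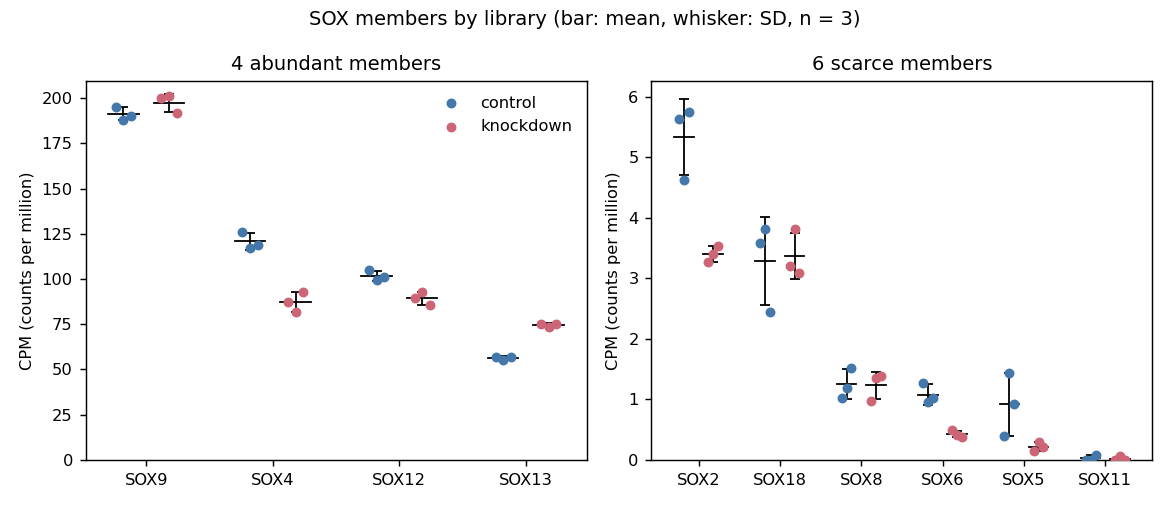
CPM of each SOX member in the 3 control (blue) and 3 knockdown (red) libraries, with the mean and SD of each group, for the 4 abundant members on the left and the 6 scarce ones on the right. SOX4, SOX12, SOX13, SOX2, SOX6 and SOX5 have groups that do not overlap, and SOX9, SOX18, SOX8 and SOX11 have groups that do.

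The SoxC factors SOX4 and SOX12 were lower in knockdown cells, and SOX11 was not measurable. SOX4, which is induced by Wnt and TGF-beta signals in several epithelia, measured 126, 117 and 119 CPM in the 3 control libraries, against 87.4, 81.6 and 92.6 CPM after knockdown. All 3 knockdown values lay below all 3 control values. The mean went from 121 ± 4.57 to 87.2 ± 5.54 CPM (SD, n = 3 each). The fitted log2 fold change was -0.44 ± 0.05 (SE), which leaves 73.8% of the control level. SOX12, a SoxC factor with a weaker activation domain, measured 105, 99.7 and 101 CPM in the 3 control libraries, against 89.7, 92.8 and 85.6 CPM after knockdown. Its groups did not overlap either, but the difference was smaller, with a log2 fold change of -0.16 ± 0.04 (SE) and 89.6% of the control level left. SOX11, best known from neural progenitors and mantle cell lymphoma, had 1 count in control replicate 3, 1 in knockdown replicate 2 and 0 in the other 4 libraries. It was at or below the floor of 3 counts per library, which is 0.166 to 0.254 CPM here and covers counting error only, so no fold change is given.

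The SoxD factors went in different directions. SOX13, first described as an autoantigen of islet cells and known to bind TCF1, measured 57.1, 55.1 and 57.0 CPM in the 3 control libraries, against 75.3, 73.5 and 75.2 CPM after knockdown. Each knockdown value exceeded each control value, and the spread within a group was small. The mean went from 56.4 ± 1.15 to 74.7 ± 1.0 CPM (SD, n = 3 each). The fitted log2 fold change was 0.43 ± 0.04 (SE), or 135% of the control level. SOX6, a factor of cartilage, muscle and red cell precursors, had 16, 12 and 12 counts in control and 7 in each knockdown library. That is 1.27, 0.955 and 1.02 CPM against 0.489, 0.410 and 0.386 CPM, with no overlap and a log2 fold change of -1.30 ± 0.36 (SE). SOX6 passed the expression filter through its control libraries only, since no knockdown library reached the 0.743 CPM that the filter asks of 3 libraries. In the DESeq2 Wald test it was not called. SOX5, its close relative and partner in cartilage, had 5, 18 and 11 counts in control and 2, 5 and 4 in knockdown libraries. The lowest control value, 0.397 CPM, lay above the highest knockdown value, 0.293 CPM. SOX5 did not pass the filter, so it has no fitted difference in the main comparison.

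The SoxE factors had overlapping groups, and neither was called in the fit over all genes. SOX9, the most abundant member, measured 195, 188 and 190 CPM in the 3 control libraries, against 200, 201 and 192 CPM after knockdown. The ranges overlapped, and the mean went from 191 ± 3.64 to 197 ± 4.77 CPM (SD, n = 3 each). The fitted log2 fold change was 0.07 ± 0.03 (SE). Without knockdown replicate 3 SOX9 was called, at a log2 fold change of 0.09. SOX8, which can act beside SOX9 in the testis and the neural crest, measured 1.03, 1.19 and 1.52 CPM in the 3 control libraries, against 0.977, 1.35 and 1.38 CPM after knockdown. The groups overlapped, with a log2 fold change of 0.03 ± 0.29 (SE). At 13 to 25 counts per library, differences within that error were not detectable at this depth.

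SOX2, the SoxB1 member, was scarce and lower in knockdown cells. It had 71, 58 and 68 counts in control and 47, 58 and 64 in knockdown libraries, which is 5.64, 4.62 and 5.75 CPM against 3.28, 3.40 and 3.53 CPM. The lowest control value stayed above the highest knockdown value. The log2 fold change was -0.61 ± 0.16 (SE), leaving 65.4% of the control level. With counts thinned to the smallest library the log2 fold change of SOX2 was -0.46 and it was no longer called. SOX2-OT, the long non-coding RNA whose gene encloses SOX2, had between 0 and 3 counts per library. SOX18, the SoxF member, measured 3.58, 3.82 and 2.45 CPM in the 3 control libraries, against 3.21, 3.81 and 3.09 CPM after knockdown. Its groups overlapped and its log2 fold change was 0.06 ± 0.20 (SE).

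Across all genes, 13832 passed the filter and 38.5% of them were called, which means here that the quasi-likelihood test of edgeR gave an adjusted p below 0.05. Of the 8 members tested, 5 were called. SOX13 was the 1 called higher, where the share over all tested genes was 19.3%. SOX4, SOX12, SOX2 and SOX6 were the 4 called lower, where the share was 19.2%. The same 5 members had groups that did not overlap in CPM, as did 48.4% of all tested genes. The members were chosen on this contrast, so nothing is read from these counts. The counts given for each gene list below stand beside the same shares, 19.3% higher and 19.2% lower. The median log2 fold change of the 8 was -0.06, that of all tested genes was 0.00, and the absolute log2 fold change of SOX4 exceeded that of 85.2% of tested genes, that of SOX13 85.0% and that of SOX12 53.6%.

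**Figure D2:**
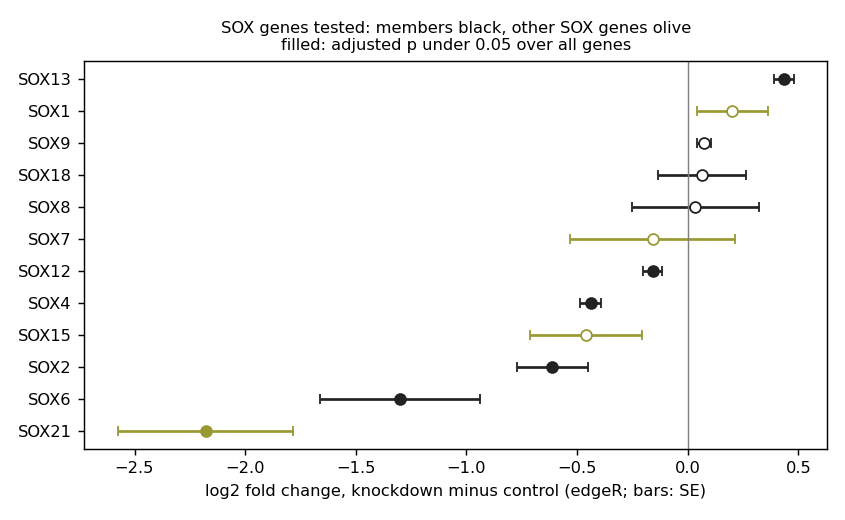
Log2 fold change (knockdown minus control, edgeR) with its standard error for the 8 tested members (black) and the 4 other tested SOX genes (olive), filled where the adjusted p over all genes was under 0.05. SOX13 at 0.43 is the highest and SOX21 at -2.18 the lowest, and the abundant genes have the short error bars.

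Ratios of members within a library do not depend on how libraries are scaled. SOX4 had 0.644, 0.622 and 0.627 counts per SOX9 count in control and 0.438, 0.407 and 0.483 in knockdown libraries. SOX12 had 0.537, 0.530 and 0.530 against 0.449, 0.462 and 0.446, and SOX13 had 0.293, 0.293 and 0.300 against 0.377, 0.367 and 0.392. None of these 3 ratios overlapped between the groups. The ratio of SOX4 to SOX13 counts went from 2.14 ± 0.06 in control to 1.17 ± 0.06 in knockdown libraries (SD, n = 3 each). That of SOX4 to SOX12 counts went from 1.19 ± 0.01 to 0.979 ± 0.10 (SD, n = 3 each).

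**Figure D3:**
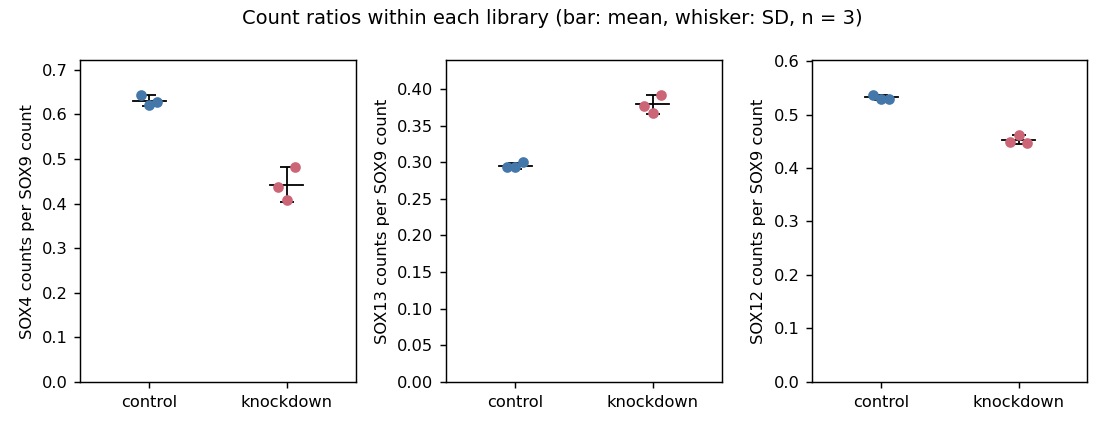
Counts of SOX4, SOX13 and SOX12 per SOX9 count in each library, with the mean and SD of each group and axes that start at 0. The SOX4 and SOX12 ratios are lower and the SOX13 ratio higher in all 3 knockdown libraries than in any control library.

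Levels of different genes were compared per kilobase of canonical transcript. In control cells the order of CPM per kilobase was SOX9 (48.7), SOX4 (24.8), SOX12 (21.8) and SOX13 (13.8), with no overlap between the library ranges of neighbours. SOX2 (2.12) and SOX18 (1.76) followed, with ranges that overlapped, then SOX8 (0.405), then SOX5 (0.130) and SOX6 (0.116), which overlapped, and SOX11. In knockdown cells SOX9 again came first at 50.2 CPM per kilobase. SOX12 (19.1), SOX13 (18.3) and SOX4 (17.9) came next, and their library ranges overlapped from each to the next. SOX18 (1.81) then stood above SOX2 (1.36), with ranges that did not overlap. SOX4 thus had rank 2 in control cells and rank 4 in knockdown cells, where its range overlapped those of SOX12 and SOX13.

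The other SOX genes were scarce. All 9 have a row, and 4 passed the filter. SOX21, a SoxB2 repressor that acts against SoxB1 factors, fell from 1.19, 1.11 and 1.44 CPM to 0.279, 0.176 and 0.331 CPM (log2 fold change -2.18 ± 0.39 SE, edgeR adjusted p 0.000216). It passed the filter through its control libraries only. SOX21-AS1, chosen after its values were seen and given with no test, spans SOX21 on the opposite strand of chromosome 13. It had 17, 15 and 19 counts in the control and 6, 1 and 5 in the knockdown libraries. The labels do not say that the libraries keep strand, and how reads were assigned where these genes overlap is not given in the sources used here. SOX1, a SoxB1 factor, averaged 5.05 ± 1.14 CPM in the controls, against 5.67 ± 0.32 CPM after knockdown (SD, n = 3 each; edgeR adjusted p 0.350). SOX15 had an edgeR adjusted p of 0.163, and of 0.0497 without knockdown replicate 3 (log2 fold change -0.73). The edgeR adjusted p of SOX7 was 0.775. SOX3, SOX10 and SOX17 had at most 2 counts in a library, SOX30 at most 4, and SOX14 none.

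SOX4 and SOX9 were set beside 30 other Wnt target genes. Of the 27 tested, 16 rose, 3 fell and 8 were not called, with a median log2 fold change of 0.22 against 0.00 over all tested genes. The direction of Wnt targets in these libraries was known when the list was written, so it is not independent evidence. TCF7 and LEF1 stand in this list and in that of HMG-box proteins. DKK4, a secreted Wnt inhibitor, rose from 56.0 ± 1.60 to 151 ± 2.84 CPM (edgeR adjusted p 1.16e-14), CCND1, which encodes cyclin D1, from 514 ± 7.31 to 715 ± 2.43 CPM (7.16e-11), and NOTUM, which inactivates Wnt proteins, from 30.8 ± 2.25 to 49.1 ± 0.79 CPM (1.55e-08; SD, n = 3 each). The 3 that fell were BMP4, a signal of the same family as TGF-beta (log2 fold change -0.34 ± 0.05 SE, edgeR adjusted p 2.25e-05), BAMBI, a decoy receptor of that family (-0.15 ± 0.04 SE, 0.00279), and RGMB, a BMP co-receptor (-0.23 ± 0.07 SE, 0.0120). The RGMB call was lost in 2 of 18 alternative fits. None of the 27 had a log2 fold change below the -0.44 of SOX4, and 17 had one above the 0.07 of SOX9. SOX4 was picked for its fall against the Wnt targets, so its place among them only describes that choice.

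**Figure D4:**
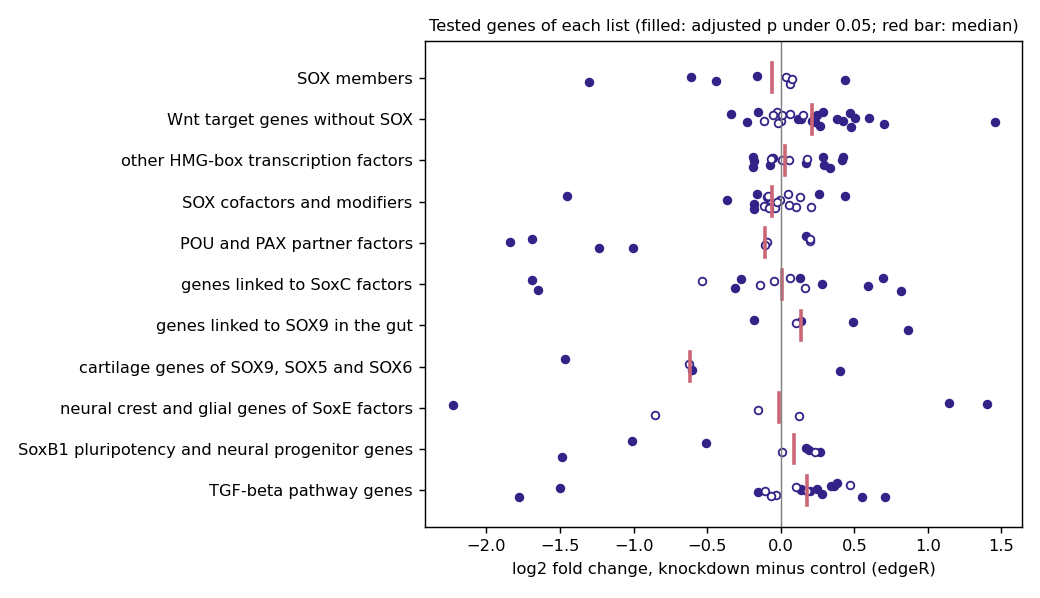
Log2 fold change (knockdown minus control, edgeR) of the tested genes of each list, filled where the adjusted p over all genes was under 0.05, with the list's median in red. The median of the Wnt target list is 0.22 and that of the SOX members -0.06. Genes below -1 appear in every row except those of Wnt targets, other HMG-box factors and genes linked to SOX9 in the gut.

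Other proteins with an HMG box include the TCF/LEF factors, the nuclear partners of beta-catenin. Of the 16 tested, 6 rose and 4 fell. TCF7 rose from 80.6 ± 1.49 to 106 ± 4.99 CPM, LEF1 from 69.5 ± 0.81 to 83.0 ± 0.38 CPM and TCF7L2 from 30.0 ± 1.15 to 39.1 ± 2.36 CPM (SD, n = 3 each; edgeR adjusted p 3.09e-07, 1.75e-05 and 2.65e-05). HMGB3, an architectural chromatin protein, fell with a log2 fold change of -0.19 ± 0.04 (SE, edgeR adjusted p 0.000541), SMARCE1, the HMG subunit of the SWI/SNF complex, with -0.18 ± 0.04 (0.000619) and BBX with -0.19 ± 0.05 (0.00693).

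Of 20 genes for SOX cofactors and modifying enzymes, 2 rose and 6 fell. The TLE genes encode Groucho corepressors and differed among themselves. TLE1 fell from 10.4 ± 0.63 to 3.72 ± 0.28 CPM and TLE4 from 46.6 ± 1.82 to 35.5 ± 1.48 CPM, while TLE3 rose from 210 ± 0.98 to 247 ± 6.75 CPM (SD, n = 3 each; edgeR adjusted p 5.74e-08, 3.16e-05 and 2.63e-06). CHD7, a chromatin remodeller that works with SOX2, rose (log2 fold change 0.44 ± 0.05 SE, edgeR adjusted p 3.60e-06).

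POU and PAX factors pair with SOX proteins on DNA. Of 9 tested, 4 fell and 1 rose, with a median log2 fold change of -0.11. POU4F1 fell from 10.8 ± 1.07 to 3.27 ± 0.62 CPM, POU3F2 from 11.03 ± 1.40 to 4.63 ± 0.89 CPM, POU3F3 from 3.76 ± 0.18 to 1.82 ± 0.34 CPM and PAX3 from 2.38 ± 0.23 to 0.632 ± 0.27 CPM (SD, n = 3 each). Their edgeR adjusted p-values were 4.35e-08, 1.55e-06, 0.000640 and 7.36e-05. PAX3 passed the filter through its 3 control libraries, since 1 knockdown library reached its level. PAX6 rose slightly (log2 fold change 0.17 ± 0.06 SE, edgeR adjusted p 0.0196), a call lost in 4 of 18 alternative fits.

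Genes linked to single SOX groups moved both ways. Of 14 tested genes linked to SoxC factors, 5 rose and 4 fell. EGFR, the epidermal growth factor receptor, rose from 150 ± 9.72 to 237 ± 15.6 CPM, DICER1, which cuts microRNA precursors, from 116 ± 2.90 to 172 ± 15.3 CPM, and TNC, the matrix protein tenascin C, from 7.77 ± 0.48 to 13.5 ± 1.02 CPM (SD, n = 3 each; edgeR adjusted p 1.16e-09, 2.11e-08 and 3.72e-06). POU4F1 (above) is in this list too. MARCKSL1 fell from 175 ± 10.4 to 138 ± 4.64 CPM and SEMA3C, a secreted guidance factor, from 1.77 ± 0.31 to 0.537 ± 0.25 CPM (SD, n = 3 each; edgeR adjusted p 1.01e-05 and 0.000684). SEMA3C passed the filter through its control libraries, with 1 knockdown library at its level.

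Among 5 tested genes linked to SOX9 in the gut, 3 rose and 1 fell. CLDN7, a claudin, rose from 2.32 ± 0.47 to 4.15 ± 0.52 CPM, CEACAM1, an adhesion protein, from 4.24 ± 0.25 to 5.83 ± 0.17 CPM and CDX2, the intestinal homeobox factor, from 77.7 ± 2.16 to 83.7 ± 2.42 CPM (SD, n = 3 each; edgeR adjusted p 0.00203, 0.0111 and 0.0148). The CDX2 call was lost in 4 and the CEACAM1 call in 1 of 18 alternative fits. IGFBP4, which binds IGFs, fell from 301 ± 7.08 to 259 ± 6.86 CPM (SD, n = 3 each; edgeR adjusted p 0.000197). The Paneth cell genes DEFA5 and DEFA6 were at 0 in every library.

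Of 12 cartilage genes of SOX9, SOX5 and SOX6, 4 were tested. COL9A3, a collagen IX chain, rose from 196 ± 10.8 to 253 ± 2.69 CPM, COL2A1, the collagen II gene, fell from 6.96 ± 1.08 to 2.46 ± 0.07 CPM, and MIA fell from 5.35 ± 0.53 to 3.41 ± 0.54 CPM (SD, n = 3 each; edgeR adjusted p 7.60e-08, 1.26e-06 and 0.00770). Of 6 tested neural crest and glial genes, ERBB3, a neuregulin receptor, rose from 8.16 ± 0.71 to 21.1 ± 0.72 CPM and OLIG2, an oligodendrocyte factor, fell from 0.998 ± 0.14 to 0.202 ± 0.02 CPM (SD, n = 3 each; edgeR adjusted p 6.00e-10 and 0.000399). OLIG2 passed the filter through its control libraries only.

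Of 8 tested genes of pluripotent and neural progenitor cells, where SOX2 acts, 3 rose and 3 fell. LIN28B, which blocks let-7 maturation, fell from 14.5 ± 0.57 to 5.08 ± 0.44 CPM and ZIC2 from 23.6 ± 0.52 to 16.2 ± 0.64 CPM (SD, n = 3 each; edgeR adjusted p 3.61e-09 and 1.29e-05). NES, which encodes nestin, rose from 215 ± 3.46 to 253 ± 6.21 CPM and NOTCH1 from 63.1 ± 3.32 to 70.5 ± 3.02 CPM (SD, n = 3 each; edgeR adjusted p 2.44e-06 and 0.00429). PAX6 (above) was the third that rose. SALL4 fell at an edgeR adjusted p of 0.0338, a call lost in 7 of 17 alternative fits, and it too passed the filter through its control libraries only.

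TGF-beta signals are a known inducer of SOX4. Of 19 tested genes of that pathway, 10 rose and 3 fell, with a median log2 fold change of 0.18. The receptor TGFBR2 rose from 42.9 ± 1.49 to 68.7 ± 1.62 CPM and the ligand TGFB1 from 109 ± 3.51 to 157 ± 3.35 CPM (SD, n = 3 each; edgeR adjusted p 1.47e-09 and 1.72e-09). SMAD4, the common mediator, fell from 8.57 ± 1.05 to 2.42 ± 0.29 CPM and CCN2, a target of the pathway, from 5.59 ± 1.70 to 1.92 ± 0.45 CPM (SD, n = 3 each; edgeR adjusted p 5.54e-08 and 4.90e-05). SMAD7, an inhibitor, had an edgeR adjusted p of 0.0481 and lost its call in 12 of 18 alternative fits.

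The nearest tested protein-coding genes on each side of the members were looked at as well. Of these 20 genes, 2 rose and 6 fell, where 19.3% of all tested genes were called higher and 19.2% lower. Beside SOX4, CDKAL1 at 361 kb and MRS2 at 2804 kb were not called (edgeR adjusted p 0.445 and 0.502). Beside SOX13, ETNK2 at 3.32 kb was not called (0.933), and SNRPE at 202 kb fell (log2 fold change -0.25 ± 0.06 SE, edgeR adjusted p 0.00166), against the direction of SOX13. Beside SOX12, ZCCHC3 at 25.2 kb fell from 51.4 ± 1.27 to 34.3 ± 2.24 CPM (edgeR adjusted p 2.12e-07) and NRSN2 at 16.6 kb from 40.2 ± 1.34 to 35.2 ± 1.32 CPM (0.0291, lost in 6 of 18 alternative fits; SD, n = 3 each). BCAT1, 247 kb from SOX5, fell from 15.5 ± 0.46 to 4.37 ± 0.64 CPM and CALCB, 884 kb from SOX6, from 5.71 ± 0.42 to 2.82 ± 0.41 CPM (SD, n = 3 each; edgeR adjusted p 8.55e-10 and 0.000123). TCEA2 beside SOX18 fell (edgeR adjusted p 0.00498) and lost its call in 1 alternative fit. The 2 that rose, ATP11B beside SOX2 and ETNK1 beside SOX5, had edgeR adjusted p-values of 0.00647 and 0.0271 and lost their calls in 1 and 7 of 18 alternative fits.

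Genes were compared with SOX4 by the Pearson correlation of log2 CPM over the 6 libraries, here scaled as in the edgeR fit. Among the 10448 that averaged 100 counts or more, the most like SOX4 were SLC44A2 (r = 0.998), PWWP3A (0.997), TOMM5 (0.996), STC2 (0.996) and RPL9 (0.996). The 6 points fall into 2 groups, so r mostly reflects the difference between them, and 437 genes had r above 0.95. Their log2 fold changes were -0.32 for SLC44A2, -0.37 for PWWP3A, -0.28 for TOMM5, -0.48 for STC2, a secreted glycoprotein, and -0.47 for RPL9, a ribosomal protein, beside -0.44 for SOX4.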

How the data were processed

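RNA-seq counts of 3 control and 3 knockdown libraries were analysed. The authors deposited whole-number read counts per gene symbol and, in a second table, a normalized signal, which is each library's counts divided by 1 constant. The submitters' processing notes name STAR 2.6.1a, Salmon, DESeq2 and hg19. Which of these made the counts is not given in the sources used here.

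Counts were tested with edgeR 4.0.16 in R 4.3.3 (filterByExpr, TMM factors, quasi-likelihood F-test, no term besides group). Adjustment was by Benjamini-Hochberg over all 13832 tested genes, with 0.05 as the threshold. An exact permutation test of 3 against 3 cannot go below a two-sided p of 0.1. Printed CPM values use library totals, while the log2 CPM behind the correlations with SOX4 uses TMM factors and a prior count of 2. No replicate pair agreed within counting error (chi-square per degree of freedom 1.37 to 2.47). The code was tested on simulated data.

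The members and lists were chosen with earlier results of these data known. Lists were written from general knowledge. Genes named are IRS2, the SOX genes, all called genes of a list (the 3 with the smallest p in each direction where more than 6 were called), the members' nearest tested neighbours and the 5 genes most like SOX4. A few genes that this rule names are not reported here. Alternatives were other scalings and filters, DESeq2 1.42.0, limma 3.58.1 (voom, and log2 of the deposited signal plus 1), thinned counts, length and GC offsets (95.8% of tested genes had values), a replicate block and leaving out each library.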

Additional observations from a re-analysis of the deposited data

How the results depend on the processing

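The calls of SOX4, SOX12 and SOX13 held in 18 of 18 alternative fits, with log2 fold changes of -0.49 to -0.39, -0.19 to -0.13 and 0.40 to 0.46. SOX6 lost its call in DESeq2's Wald test (-1.31), SOX2 lost it with thinned counts (-0.46), and SOX9 gained one without knockdown replicate 3 (0.09). The cause was not tested. SOX18 and SOX8, never called, changed sign, ranging from -0.10 to 0.19 and from -0.09 to 0.20. SOX5 was tested in 5 fits, with log2 fold changes of -2.35 to -1.78. It was called there, but entered those fits through its control libraries or with no filter, so these calls say nothing about stability.

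Members called numbered 4 to 6 over the fits with all libraries. Leaving out 1 library gave 5 to 7 members, 1 to 2 higher and 4 to 5 lower, and 68 to 77 called genes over the related lists against 77. Over all genes it gave 4319 to 5256 calls against 5329. DESeq2 called 3890, no filter 5722, and an adjusted p under 0.01 left 3714. Against 2676 higher and 2653 lower calls, library size alone gave 2206 and 3198, with the median log2 fold change moved from 0.00 to -0.03, and upper-quartile factors gave 2354 and 3012.

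With the replicate block 4862 genes and 5 members were called, and SOX4 had a log2 fold change of -0.44. With the block and the length and GC offsets together it was -0.47. Deviations of same-numbered libraries correlated at 0.04, -0.01 and -0.10. Counting error is part of each deviation, so these low values cannot decide whether the libraries were paired. The labels state no pairing. Of 1584 alternative values for 89 single genes, 1527 stayed on the same side of 0.05, 50 lost a call and 7 gained one. Depth limits SOX5, SOX6, SOX8 and SOX11, at 25 counts or fewer in any library.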
